A study of Saccharomyces cerevisiae with 8 samples.

Results

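The comparison sets the array of the strain labelled mre11delta at 4 h in sporulation medium against the array of rad50delta at the same time. These are 2 of the 8 arrays of the series, chosen by their labels alone. All strains are diploid Saccharomyces cerevisiae of the SK1 background, which sporulates rapidly and with good synchrony. YMD1599 carries the mre11delta genotype and RKD101 the rad50delta genotype, each 1 strain. The other arrays are the same strains at 0 h, and wild type (MJL1720) and spo11Y135F (RKD1312, a change in the catalytic tyrosine of Spo11) at 0 h and 4 h. Per the labels, cells were grown in presporulation medium and moved to acetate sporulation medium, which marks 0 h, and the 4 h cells are described as being in prophase. Polyadenylated RNA was measured on Affymetrix YG-S98 arrays, with 1 array per strain and time. RNA of the array labelled mre11delta was extracted with Trizol, and RNA of the other 3 arrays at 4 h with glass beads and RNeasy columns. The same difference in extraction holds between both strains at 0 h, so strain and extraction cannot be told apart at either time.

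Mre11 and Rad50 are subunits of the MRX complex, which also holds Xrs2. In meiosis the complex is needed for Spo11 to make DNA double-strand breaks and then to free Spo11 from the break ends so that the ends can be resected. Cells that lack breaks do not trigger the recombination checkpoint, which otherwise holds back Ndt80, the transcription factor that turns on the middle genes of the meiotic divisions and of spore formation. Early genes, which act in break formation, the chromosome axis and the synaptonemal complex, are turned on before Ndt80 acts.

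For each gene the difference is log2(signal + 7) in the array labelled mre11delta minus that in rad50delta. The median difference over the 5480 tested genes was 0.24 at 4 h, and a relative difference is the difference minus this median. A gene is called higher or lower where the difference is at least 2-fold (1 on the log2 scale) and the brighter of both signals is at least 21, the floor used here. As deposited, 830 genes were higher in the array labelled mre11delta (15.1% of those tested) and 407 lower (7.43%). Relative to the median gene, 492 genes were higher (8.98%) and 573 lower (10.5%). These 2 percentages are the background for every count of list members below, which are all relative differences at 4 h unless stated. With 1 array a side there is no test of a difference at 4 h, and no value below carries an error. In bulk RNA, fewer cells of a kind and less RNA per cell cannot be told apart.

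The larger differences lay on the low side. At least 4-fold lower in the array labelled mre11delta were 184 genes (3.36%), against 59 that were at least 4-fold higher (1.08%). At least 16-fold lower were 71 genes (1.3%), against 4 at least 16-fold higher (0.073%). Of those 71 genes, 39 belong to the lists of middle or spore genes described below, against 68 of all 5480 tested genes. The plot of both arrays at 4 h shows this side of the diagonal.

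**Figure D1:**
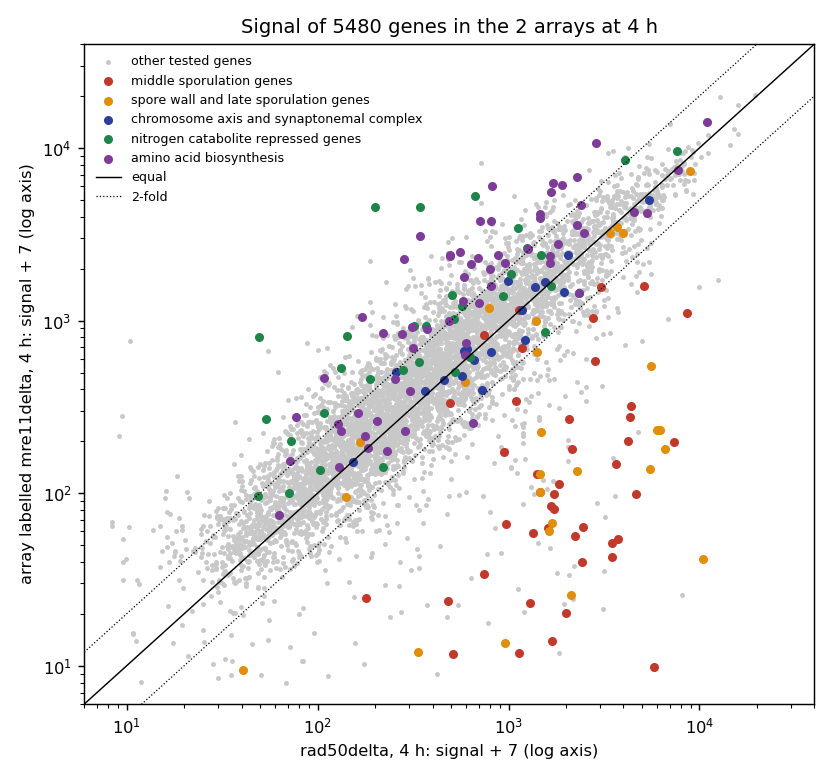
Signal + 7 of the 5480 tested genes in rad50delta (horizontal axis) and in the array labelled mre11delta (vertical axis) at 4 h, both on log axes. The solid line marks equal signals and the dotted lines 2-fold; middle sporulation genes (red) and spore genes (orange) form a cloud far below the diagonal, while genes of the chromosome axis (blue) lie along it and nitrogen (green) and amino acid genes (purple) lie along or above it.

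RAD50 and MRE11 were looked at before anything else, to see whether each array shows its deletion. RAD50 (YNL250W), the ATPase subunit of MRX, has 6 probe sets, all higher in the array labelled mre11delta at 4 h. Their differences ran from 0.82 to 6.20, and the set read here had the largest. In rad50delta its signal was near 0, with 0.6 and 3.4 at both times. The remaining 6 arrays spanned 88.4 to 758.2. The array labelled mre11delta at 4 h gave the highest of these values, 758.2, which is at least 36.1 times the floor. MRE11 (YMR224C), the nuclease subunit, read 108.0 in the array labelled mre11delta and 192.4 in rad50delta at 4 h, and 84.0 and 45.0 at 0 h. Wild type read 120.5 and 147.7 and spo11Y135F 71.1 and 99.3, so the MRE11 signal does not mark the strain labelled mre11delta. Which part of MRE11 the probes cover was not known here. Each direction below takes that label as it stands. XRS2, the third subunit, had 120.9 against 113.7 at 4 h, a relative difference of -0.15. TEL1, the checkpoint kinase that MRX recruits to breaks, had 300.2 against 660.1, a relative difference of -1.36.

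URA3 (YEL021W), the uracil synthesis gene often used as a marker in strain construction, was like RAD50 near 0 in rad50delta. Unlike RAD50, it was also under the floor in wild type at 4 h. In the strain labelled mre11delta its signal was 486.2 at 0 h and 273.0 at 4 h, and in rad50delta 4.4 and 2.5. Wild type had 496.2 at 0 h and 14.8 at 4 h, and spo11Y135F had 357.2 and 91.3. Of the strains, only rad50delta was under the floor at both times. Among all 12 genes in the list of common strain markers, 7 were higher and 0 lower in the array labelled mre11delta. The amino acid genes HIS4, HIS3, LEU2 and ARG4 are part of that count and of the list of amino acid synthesis below. The probe sets of LEU2 disagreed, with differences from -5.66 to 2.95, and with their mean its relative difference turned from 1.44 to -0.34.

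The only replicated form of the comparison takes both times as replicates of a strain. A limma fit of strain and time over all 8 arrays called 2 of the 5480 genes (0.0365%), RAD50 and URA3, both higher in the arrays labelled mre11delta. In limma's fit the RAD50 difference was 4.93 in log2 (SE 0.79, adjusted p = 0.0134), higher at both times. In the same limma fit the URA3 difference was 5.16 (SE 0.86, adjusted p = 0.0134), higher at both times. At an unadjusted p under 0.05 the fit held 206 genes. That is a smaller share of the 5480 genes than the 0.05 that would pass if no gene differed. With the extraction method as a covariate it called 0 genes, and 126 had an unadjusted p under 0.05. Within a strain, extraction varied only in wild type, where it changed together with time. The fit with this covariate had 2 residual degrees of freedom and did not call even RAD50, so its 0 calls do not show that the strains are alike. No meiotic or nutrient gene named below other than RAD50 and URA3 was called by the fit of strain and time, which averages over both times.

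Early meiotic genes stood at like levels in both arrays. DMC1, the meiotic strand exchange protein, had a signal of 4851.1 in the array labelled mre11delta and 5056.7 in rad50delta at 4 h, against 43.8 and 189.8 at 0 h. REC8, the meiotic cohesin subunit, had 2403.0 and 2045.8 at 4 h. RED1, a core protein of the chromosome axis, had 661.2 and 578.4. For these 3 genes both arrays at 4 h lay far above both at 0 h and within 1.5-fold of each other. HOP1, the axis protein that carries the checkpoint signal, had 1691.0 against 989.9, a relative difference of 0.53. ZIP1, the central element of the synaptonemal complex, had 468.4 against 563.0, and MEK1, the kinase that acts with Red1 and Hop1, 1144.2 against 1174.4.

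Over the 18 tested genes of the axis and synaptonemal complex the median relative difference was -0.25, with 0 members higher and 1 lower. The lower one was CSM4, which acts in chromosome movement from the nuclear envelope, with 391.2 against 718.1. ZIP2, an early synapsis protein, lay farthest on the other side, with 498.6 against 251.0 (0.73). Of the 8 tested genes of break formation none passed 2-fold either way, and their median was -0.03. SPO11 itself had 322.3 against 468.7 (-0.77), the lowest of that list, and REC102, one of its partners, 1499.1 against 1014.9 (0.32), the highest. In spo11Y135F the SPO11 signal at 4 h was 94.2.

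Among 21 tested genes of strand exchange and crossover resolution, 1 was higher and 1 lower, and the median was -0.18. The higher one was TOP3, a topoisomerase that works with Sgs1 to dissolve joined DNA, with 375.1 against 142.0 (1.12). The lower one was EXO1, a nuclease that resects ends and acts in crossover formation, with 171.9 in the array labelled mre11delta and 963.0 in rad50delta (-2.68). Wild type at 4 h had an EXO1 signal of 109.9 and spo11Y135F one of 1281.1. For EXO1 the array labelled mre11delta thus lay by wild type, and rad50delta by spo11Y135F. SAE3, a partner of Dmc1, had 607.7 against 631.4, but its probe set is shared with other genes and its value is uncertain.

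Meiotic entry regulators were mostly close at 4 h, apart from IME2 and NDT80. IME1, the master activator of entry, had 8808.3 against 10131.2 (-0.44). RIM4, an RNA-binding protein that holds back translation of middle messages, had 2211.5 against 2366.9 (-0.34). The 2 lower members among 15 tested were IME2, the kinase that drives entry and helps to activate Ndt80, and NDT80 itself. IME2 had 1792.9 against 3214.6 (-1.08). NDT80 (YHR124W) had 165.3 in the array labelled mre11delta and 936.3 in rad50delta (-2.69), a 5.47-fold difference. In wild type NDT80 had 226.2 at 4 h and in spo11Y135F 1688.9. SUM1, the repressor that keeps middle genes off before Ndt80 takes its sites, had 323.6 against 176.0 (0.62). At 0 h IME2 had 16.9 against 73.1 (-1.89) and NDT80 54.4 against 115.0 (-1.14), so both were lower then too. The median of the entry list at 0 h was -0.96. Then 7 members were lower and 0 higher, against 16% and 15.6% of all tested genes.

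Of the 39 gene lists read here, the middle sporulation genes had the median farthest from 0. Of 43 tested members, 0 were higher and 39 lower in the array labelled mre11delta, against a background of 8.98% and 10.5%. Their median relative difference was -4.54, and the lower and upper quartiles of the members were -5.61 and -3.14. The median signal of the members was 91.9 in the array labelled mre11delta, 226 in wild type, 1822 in rad50delta and 2981 in spo11Y135F at 4 h. Relative to the median gene, the list median differed from wild type at 4 h by -1.88 in the array labelled mre11delta and by 2.16 in rad50delta. The part of extraction in these differences was not tested. At 0 h the median signal of these genes was 26.1 to 30.6 in all strains. Their median relative difference between both strains was -0.48 at 0 h.

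SPR2 (YOR214C), a putative spore wall protein, was under the floor in the array labelled mre11delta. Its signal was 2.9 in the array labelled mre11delta and 5805.7 in rad50delta at 4 h, with 247.2 in wild type and 6941.2 in spo11Y135F. The rad50delta value is at least 276 times the floor. SMK1 (YPR054W), a MAP kinase of spore wall formation, had 13.3 against 1999.6, at least 95.2 times the floor. SMA1 (YPL027W) and SMA2 (YML066C) act in assembly of the prospore membrane, which encloses the daughter nuclei. SMA1 had 7.0 against 1689.1, and SMA2 had 4.8 against 1125.2. All 4 genes were under the floor in the array labelled mre11delta and had their highest signals in spo11Y135F.

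Other middle genes were still above the floor in the array labelled mre11delta. SPS1 (YDR523C), a kinase of spore wall formation, had 44.3 against 3471.4, a 67.8-fold difference. SPS2 (YDR522C), a spore wall protein and the neighbour of SPS1 by locus tag, had 35.8 against 3461.9, 81.0-fold. SPS4 (YOR313C), a sporulation-specific gene, had 47.4 against 3735.1, 68.8-fold. SPS4 was one of the middle genes that wild type already expressed at 4 h, with a signal of 1158.0. Both SPR3, a sporulation septin (49.5 against 2225.3), and SPO20, a membrane fusion protein of the prospore membrane (56.8 against 2451.7), showed the same direction.

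CDA2 (YLR308W), a chitin deacetylase that makes the chitosan layer of the spore wall, had 91.6 against 4664.0. Its probe sets disagreed, and their differences ran from -5.57 to 0.54. Its partner CDA1 had 141.4 against 3628.0 (-4.85).

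The list of middle genes includes regulators of the meiotic divisions, and NDT80 is a member as well. CLB1 (YGR108W), a B-type cyclin of the first meiotic division, had 55.7 in the array labelled mre11delta and 1606.6 in rad50delta, 25.7-fold. CDC5 (YMR001C), the polo kinase that resolves joint molecules and drives exit from pachytene, had 268.1 against 4310.7, 15.7-fold. CDC20 (YGL116W), the activator of the anaphase-promoting complex, had 174.0 against 2154.7, 11.9-fold. All 3 were also in the list of the mitotic G2/M cluster, in which 8 of 16 tested members were lower and 0 higher. The other lower members were SWI5, IQG1, HOF1, MOB1 and HST3, of which MOB1 has only a shared probe set. SWI5, a transcription factor of mitotic exit, had 1.9 against 28.4 at 4 h, and 35.2 against 11.4 at 0 h. HOF1, of cytokinesis, had 32.7 against 92.0 (-1.56). CLB2, the main mitotic cyclin, had 52.7 against 52.6. Members of this list outside the middle genes were thus lower or close, and most had signals under 100 in the array labelled mre11delta.

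The S-phase cyclins CLB5 and CLB6, which are not in the G2/M list, were lower too. CLB5 had 1550.6 against 3025.6 (-1.20) and CLB6 17.6 against 172.4 (-3.10). MAM1 (YER106W), a monopolin subunit that joins sister kinetochores in the first division, had 195.9 against 2031.8 (-3.57). SGO1 (YOR073W), the protector of centromeric cohesin, had 449.4 against 1721.4, 3.79-fold. MAM1 and SGO1 were among 4 lower genes of 26 tested in the list of kinetochore and spindle checkpoint genes, with 0 higher.

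A few middle genes differed by less than 2-fold. The 4 tested members that did not pass 2-fold were CLB3, AMA1, SPO1 and MPC54, named here after their values were seen. CLB3, a B-type cyclin, had 685.9 against 1164.5, just short of 2-fold. AMA1, a meiotic activator of the anaphase-promoting complex, had 324.6 against 489.3 (-0.82). SPO1, a phospholipase-like protein, had 1148.7 against 1125.6 (-0.21). MPC54, a component of the meiotic outer plaque at the spindle pole, had 818.6 against 734.5 (-0.08). For MPC54 wild type, with 509.5, and spo11Y135F, with 911.6, were close as well.

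**Figure D2:**
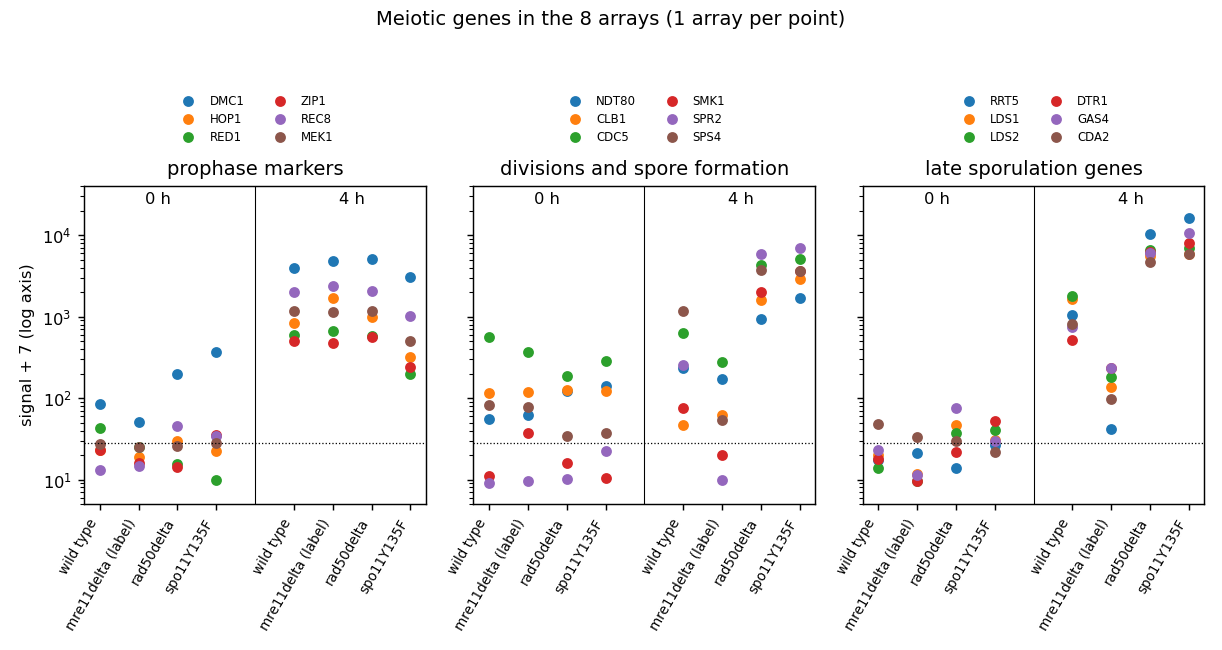
Signal + 7 (log axis) of meiotic genes in the 8 arrays, with 0 h left and 4 h right of the line in each panel and 1 point per array; the dotted line is the floor. Prophase markers are high in all strains at 4 h, while the division and spore genes are high in rad50delta and spo11Y135F, lower in wild type and, apart from CLB1, lowest in the array labelled mre11delta.

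Among genes of the spore wall and of late sporulation, 17 of 26 tested members were lower and 0 higher, with a median of -3.67. RRT5 (YFR032C) had the largest difference among genes above the floor in both arrays, with 34.8 in the array labelled mre11delta and 10397.0 in rad50delta (-8.20, 249-fold as deposited). Wild type had 1034.2 and spo11Y135F 16153.1. LDS1 (YAL018C) and its relative LDS2 encode proteins of the lipid droplets that accompany the forming spore wall. LDS1 had 130.3 against 5513.1 and LDS2 had 173.5 against 6558.0. DTR1, the bisformyl dityrosine transporter of the prospore membrane, had 226.8 against 6226.3 (-4.97). GAS4, a glucan-remodelling enzyme of the spore wall, had 225.9 against 5976.8 (-4.92). SGA1 (YIL099W), the sporulation-specific glucoamylase that breaks down glycogen, had 537.3 against 5549.4, 10.2-fold. At 0 h the list was already lower in the array labelled mre11delta, with a median of -1.43. Then 14 members were lower and 0 higher, against 16% and 15.6% of all tested genes. SGA1 had 291.8 against 1233.9 at 0 h, and LDS1 4.8 against 39.5.

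Several genes of this list that wild type expressed strongly at 4 h did not differ by 2-fold. AQY1, a spore water channel, had 7334.0 against 8875.9 (-0.51), with 6191.9 in wild type. SRT1, a polyprenol synthase of spore lipid droplets, had 3188.5 against 3374.3 (-0.32), with 2964.4 in wild type. GSC2, a glucan synthase of the spore wall, had 3484.6 against 3712.6 (-0.33). At 0 h, AQY1 had 41.3 in the array labelled mre11delta and 370.9 in rad50delta, and GSC2 had 125.5 against 1013.3. Both were thus higher in rad50delta at 0 h and close at 4 h. DIT1, the first enzyme of dityrosine synthesis, had 87.7 against 134.4, and DIT2, the second, 2.5 against 33.6.

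Genes outside the middle and spore lists were also far lower. YPR078C had 18.7 in the array labelled mre11delta and 8081.9 in rad50delta, at least 385 times the floor, with 254.2 in wild type and 10418.0 in spo11Y135F. UBC11 (YOR339C), a ubiquitin-conjugating enzyme, had 14.4 against 3123.3, at least 149 times the floor. BIL2 (YGL015C) had 28.5 against 3153.5 (-6.71), and HIM1 (YDR317W) 30.9 against 2200.6 (-6.10). HXT14, of the hexose transporter family, had 20.7 against 1107.8, at least 52.8 times the floor. The 71 genes at least 16-fold lower had a median signal of 44.3 in the array labelled mre11delta and 1790.1 in rad50delta, the values that chose them. Their median was 130.5 in wild type and 2823.1 in spo11Y135F at 4 h. At 0 h it was 11.5 and 20.5 in the strains compared.

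Each strain was also set against wild type at 4 h, in comparisons that share arrays with the one above. The array labelled mre11delta had 7.76% of tested genes at least 2-fold higher than wild type and 5.78% lower, relative to the median gene. For rad50delta these were 11.2% and 2.39%. The median relative difference of middle genes from wild type was -1.88 in the array labelled mre11delta and 2.16 in rad50delta. Between the pair of RNeasy mutants, 10.7% of genes were higher in spo11Y135F than in rad50delta and 10.2% lower, with a median of 0.88 over middle genes. In the array labelled mre11delta 20.6% were higher than in spo11Y135F and 21.9% lower.

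Markers of haploid or mating-type specific cells were read because the strains are labelled diploid. Of 21 tested genes, 2 were higher and 7 lower. STE18 (YJR086W), the gamma subunit of the pheromone G protein, had 15.5 in the array labelled mre11delta, 368.0 in rad50delta, 35.3 in wild type and 1356.8 in spo11Y135F. STE4, the beta subunit, had 1112.9 against 2457.7 (-1.38). The pheromone receptor genes STE2 and STE3 had 44.1 against 37.9 and 124.3 against 187.1. MF(ALPHA)1, a precursor of alpha factor, had 38.1 against 185.5 (-2.33) at 4 h and 2.3 against 110.4 at 0 h. STE5, the scaffold of the pheromone kinases, had 80.7 against 214.4 (-1.57), and FAR1, which arrests the cycle on pheromone, 76.0 against 177.4 (-1.39). The higher members were STE6, the a-factor exporter, with 212.3 against 75.6 (1.17), and AGA1, an agglutinin subunit, with 126.6 against 38.9 (1.30). The list was thus split, with more members lower than higher. The part of other cells in any result was not tested.

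**Figure D3:**
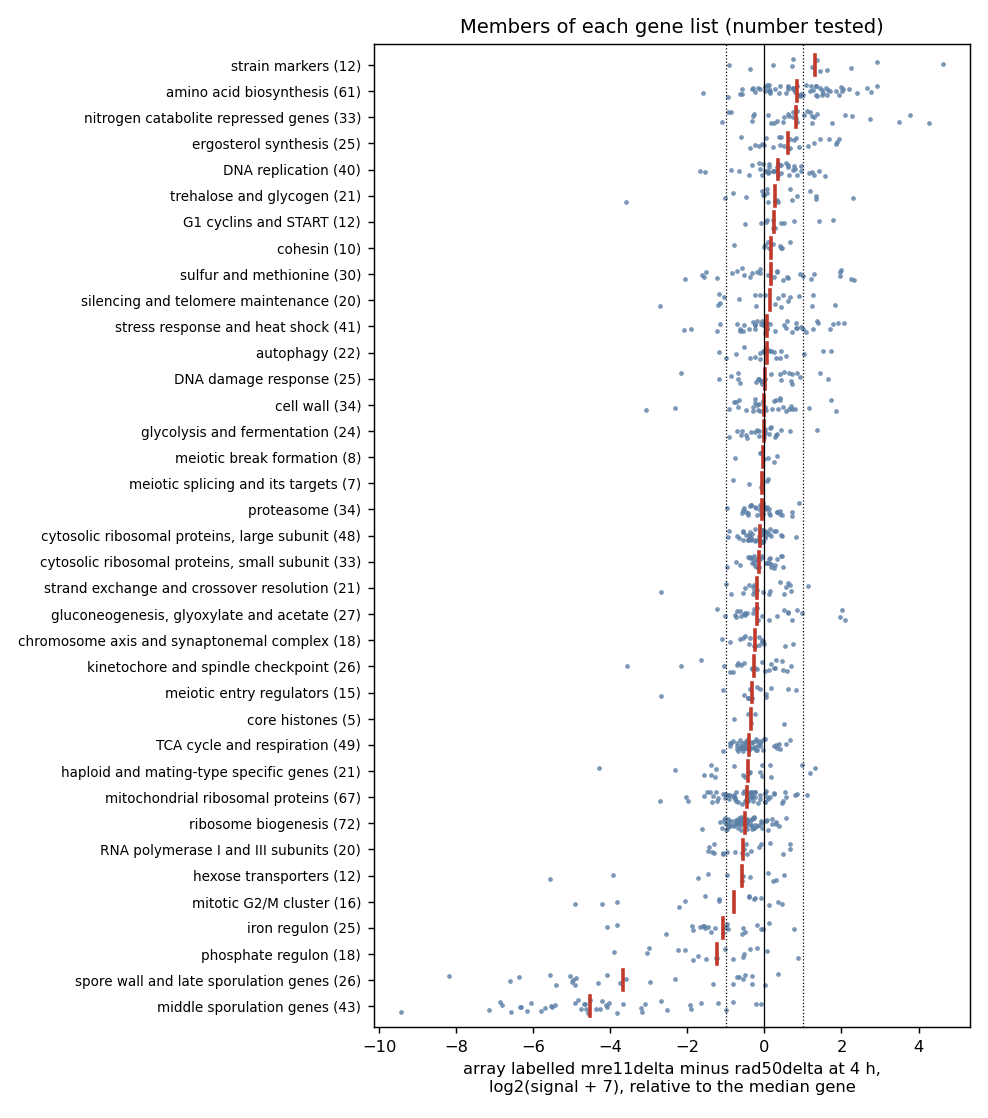
Relative difference in log2 at 4 h (array labelled mre11delta minus rad50delta, horizontal axis) of each tested member of the lists with at least 5 tested genes; 1 point per gene, red bars at list medians, dotted lines at 2-fold. Middle and spore genes lie far to the left, followed by phosphate and iron genes, and amino acid and nitrogen genes lie to the right.

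Genes of nitrogen use were among those on the higher side. When good nitrogen sources run out, yeast turns on permeases and enzymes for poor ones, a set known as nitrogen catabolite repressed genes. Of 33 tested, 14 were higher and 1 lower in the array labelled mre11delta, with a median of 0.82. MEP2 (YNL142W), the high-affinity ammonium permease, had 4563.9 in the array labelled mre11delta, 192.9 in rad50delta, 96.3 in wild type and 113.3 in spo11Y135F, a 22.9-fold difference between the first pair. GAP1 (YKR039W), the general amino acid permease, had 4546.3, 338.7, 466.2 and 110.1 in the same order, 13.2-fold. DAL5 (YJR152W), the allantoate permease, had 5256.5 against 659.8, 7.89-fold. DAL3 (YIR032C), an enzyme of allantoin breakdown, had 793.6 against 42.4, 16.2-fold. For these 4 genes the array labelled mre11delta stood above the other 3 arrays at 4 h, and it was the only Trizol array at that time. In signals as deposited it was the highest of the arrays at 4 h for 57.0% of all tested genes. The probe sets of DAL5 disagreed, with differences from -1.50 to 3.49.

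Regulators and enzymes of the same set were included. DAL80, a repressor of the set, had 521.4 against 126.0 (1.75), and GAT1, an activator, 920.5 against 314.5 (1.29). CPS1, a vacuolar carboxypeptidase, had 810.0 against 136.4 (2.27). CAR1, the arginase, had 9568.4 against 7652.3 (0.08). The lower member was GDH2, which releases ammonium from glutamate, with 847.1 against 1539.1 (-1.09). At 0 h the median of the set was -0.36, and 1 member was higher and 12 were lower, against 15.6% and 16% of all tested genes. MEP2 had 20.8 against 43.4 at 0 h and GAP1 256.4 against 681.4, both lower in the array labelled mre11delta.

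Amino acid biosynthesis genes, many of them under the activator Gcn4, also lay on the higher side. Of 61 tested, 27 were higher and 1 lower, with a median of 0.85. HIS4 (YCL030C), of histidine synthesis, had 3082.6 in the array labelled mre11delta, 336.9 in rad50delta, 158.0 in wild type and 192.5 in spo11Y135F, an 8.98-fold difference between the first pair. ILV2 (YMR108W), of isoleucine and valine synthesis, had 2260.7 against 275.8, 8.02-fold. LEU4 (YNL104C), the first enzyme of leucine synthesis, had 6037.3 against 809.1, 7.41-fold. TRP2 (YER090W), of tryptophan synthesis, had 1048.2 against 163.7, 6.18-fold. At 0 h HIS4 had 3049.0 in the array labelled mre11delta and 1323.2 in rad50delta, and LEU4 had 4446.4 and 1983.4. From 0 h to 4 h in the strain labelled mre11delta, HIS4 changed by 0.016 and LEU4 by 0.44 in log2 as deposited. The median change of all tested genes there was 0.74, so neither gene rose relative to it.

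In the strain labelled mre11delta the median signal of the 61 genes was 977 at 0 h and 1991 at 4 h. It was 513 and 595 in rad50delta, and 1077 and 398 in wild type. Member by member, the median change from 0 h to 4 h was 0.32 in log2 under the label mre11delta and 0.12 in rad50delta. Over all tested genes it was 0.74 and 0.61, so the list did not rise relative to the median gene in either strain. At 0 h the median relative difference was 0.53, with 21 higher and 4 lower, so that amino acid genes lay on the same side at both times. The lower member at 4 h was SER33, of serine synthesis, with 248.0 against 643.7 (-1.59). OAC1 (YKL120W), a mitochondrial carrier of oxaloacetate that is outside the list, had 8134.3 against 711.1, 11.3-fold. CHA1 (YCL064C), which breaks down serine and threonine, had 662.4 against 48.0, 12.2-fold.

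Sterol genes showed the same side with smaller differences. Of 25 tested genes of ergosterol synthesis, 7 were higher and 0 lower, with a median of 0.62. HMG1 (YML075C), the main HMG-CoA reductase, had 3597.2 against 814.2, 4.39-fold. ERG20 (YJL167W), farnesyl diphosphate synthase, had 1616.4 against 375.2, 4.25-fold. ERG11, the lanosterol demethylase, had 1897.0 against 2069.9 (-0.36).

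Trehalose, sulfur and stress genes were split. Among 21 tested genes of trehalose and glycogen, 4 were higher and 2 lower. TSL1 (YML100W), of trehalose synthesis, had 1118.9 against 186.3, 5.82-fold, and TPS2, the trehalose phosphatase, 3547.9 against 1192.4, 2.96-fold. Of 30 sulfur and methionine genes, 7 were higher and 5 lower. MET13 (YGL125W), a methylenetetrahydrofolate reductase, had 2847.3 against 472.6, 5.95-fold, while MET32, a regulator of the pathway, had 114.4 against 311.2 (-1.63). Of 41 stress and heat shock genes, 8 were higher and 4 lower. TFS1 (YLR178C), an inhibitor of carboxypeptidase Y, had 5271.1 against 1055.2, 4.97-fold. SSA3, an inducible chaperone, had 788.7 against 2877.6, 3.63-fold lower. HSP12, a membrane-protecting heat shock protein, had 7814.3 against 8124.7 (-0.29).

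Iron and phosphate genes were lower. Of 25 tested genes of the iron regulon, 14 were lower and 0 higher, with a median of -1.09. FET4 (YMR319C), the low-affinity iron permease, had 111.0 in the array labelled mre11delta, 1703.5 in rad50delta, 567.6 in wild type and 976.1 in spo11Y135F, a 14.5-fold difference between the first pair. FIT2 (YOR382W), a cell wall mannoprotein that retains iron carriers, had 101.9 against 1300.3 (-3.82). TIS11, which degrades messages of iron-using proteins, had 177.3 against 905.7, 4.95-fold. The high-affinity uptake pair FET3 and FTR1 differed little, with 655.3 against 593.3 for FET3 and 1103.4 against 1333.2 for FTR1. At 0 h the iron list was already at a median of -0.71. Then 10 members were lower and 1 higher, against 16% and 15.6% of all tested genes. FET4 had 33.6 against 369.8 at 0 h, TIS11 295.6 against 1600.0 and FIT2 815.1 against 1070.4. The Trizol arrays had the lowest FET4 signals of the series, with wild type at 39.9 at 0 h. The part of extraction in these values was not tested.

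Of 18 tested phosphate genes, 11 were lower and 0 higher, with a median of -1.24 at 4 h and of -2.11 at 0 h. PHO84 (YML123C), the high-affinity phosphate transporter, had 1007.8 in the array labelled mre11delta and 6815.9 in rad50delta at 4 h, and 71.8 and 6218.3 at 0 h. The PHO84 difference was thus smaller at 4 h than at 0 h. PHO5 (YBR093C), the secreted acid phosphatase, had 148.3 against 1074.4 at 4 h and 33.6 against 534.0 at 0 h. PHM6 (YDR281C) had 112.0 against 1512.3 at 4 h and 18.4 against 308.5 at 0 h. Wild type at 0 h, extracted with Trizol as the array labelled mre11delta was, had a PHO84 signal of 80.3, and wild type at 4 h, extracted with RNeasy columns, 3573.0. For PHO84 the Trizol arrays were thus the 3 lowest of the 8. In wild type, time and extraction change together, and the part of either in these values was not tested.

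**Figure D4:**
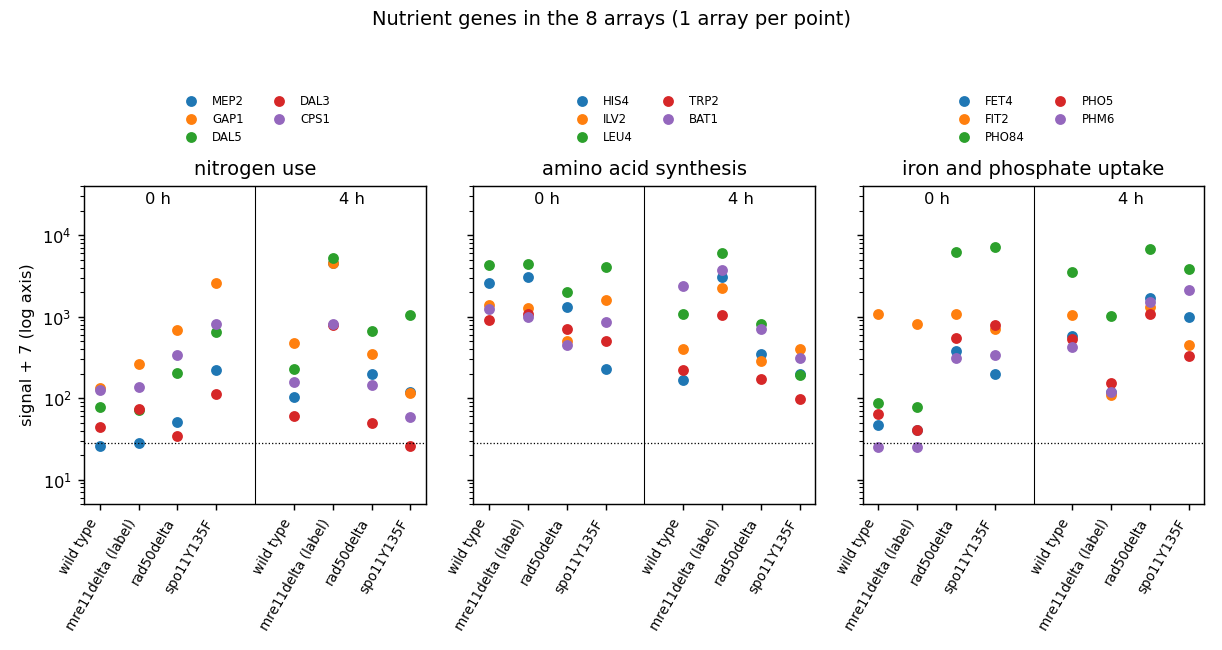
Signal + 7 (log axis) of nutrient genes in the 8 arrays, drawn as in the plot of meiotic genes, with 1 point per array and the floor dotted. Among the 4 h arrays, nitrogen and amino acid genes are highest in the array labelled mre11delta, while iron and phosphate genes are lowest there.

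The difference between both strains was not the same at 0 h and at 4 h. Over 5480 genes the relative difference at 4 h and that at 0 h correlated with a Pearson's r of 0.031 across genes, which are not independent replicates. From 0 h to 4 h the difference changed by at least 2-fold in 2379 genes (43.4%). Both differences passed 2-fold in opposite directions in 214 genes (3.91%) and in the same direction in 184 (3.36%). These counts compare single arrays and include their noise.

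Mitochondrial ribosomal proteins differed in opposite directions at the 2 times. Of 67 tested, 66 were higher and 1 lower in the array labelled mre11delta at 0 h, with a median of 2.26. At 4 h, 1 was higher and 14 lower, with a median of -0.45. MRPS17 (YMR188C), of the small subunit, had 1196.7 against 289.4 at 0 h and 207.1 against 1179.3 at 4 h. MRPL37 (YBR268W), of the large subunit, had 3247.4 against 748.2 and then 1121.2 against 3752.5. The 67 genes had a median signal of 1290 and 230 (0 h, 4 h) under the label mre11delta, of 205 and 315 in rad50delta, and of 1273 and 130 in wild type. The arrays labelled mre11delta and wild type were thus high at 0 h and low at 4 h, while rad50delta was low at both times. At 0 h these high arrays were the Trizol arrays, and the median in spo11Y135F, extracted as rad50delta was, was 256.5. The part of extraction in these values was not tested.

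Other growth genes had the same order of medians. Subunits of RNA polymerases I and III had a median of 1.08 at 0 h and -0.55 at 4 h, with 7 of 20 lower and 0 higher at 4 h. Ribosome biogenesis genes had 0.86 and -0.51, with 6 of 72 lower and 0 higher at 4 h. Cytosolic ribosomal proteins of the large subunit had 0.83 and -0.12, and those of the small subunit 0.79 and -0.14. No member of either subunit passed 2-fold at 4 h, but 13 of 48 and 15 of 33 tested members are read by a shared probe set alone, so that their values are uncertain.

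**Figure D5:**
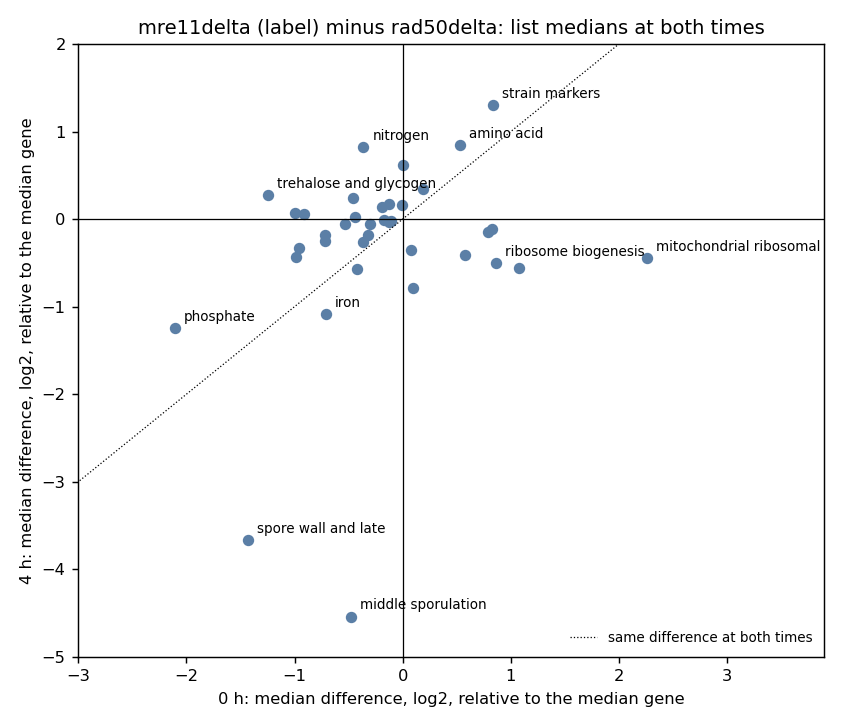
Median relative difference in log2 of each list with at least 5 tested genes at 0 h (horizontal axis) and at 4 h (vertical axis), array labelled mre11delta minus rad50delta, 1 point per list; the dotted line marks equal differences. Mitochondrial ribosomal proteins lie far right near 0 at 4 h, and middle and spore genes lie far down near or left of 0 at 0 h.

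Signs of RNA quality and depth were read for both arrays at 4 h. The median signal of tested genes was 401 in the array labelled mre11delta and 358 in rad50delta, and the bacterial spike controls had a mean of 1399 and 1587. The ratio of 3′ to 5′ signal was 1.43 and 1.54 for ACT1, 2.03 and 2.23 for SPT15, and 3.80 and 2.68 for SRB4. The median of 10 ribosomal RNA probe sets was 463 against 119. By gene length, the median relative difference ran from -0.13 in the shortest quartile to 0.17 in the longest. The part of these values in the differences above was not tested.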

How the data were processed

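Expression was read from 8 single-colour Affymetrix YG-S98 arrays, 1 per strain and time. The deposited values are intensities on a linear scale, computed with MAS5 per the submitters' processing notes. The version of MAS5 and any scaling between arrays were not given in the sources used here. No column of other samples was present (0 columns).

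Of 9335 probe sets, 6504 carry 1 gene in the platform annotation, 328 several and 2503 none, 60 controls among the last. Genes were named by symbol and locus tag. Where a gene had several probe sets, a gene-specific one was preferred and among those the brightest on average, which left 5656 genes with 1 set each. Genes with a mean intensity of at least 21 over the arrays were used, 5480 in all, 191 of them with only a shared probe set. Values were taken as deposited on the log2(signal + 7) scale, 7 being close to the 10th percentile of all signals (6.8); such differences understate the change of dim genes. A fold against a signal under 21 is given as the higher signal over 21. Strain effects over both times were fitted with limma 3.58.1 in R 4.3.3 (strain and time, 3 residual degrees of freedom, eBayes with trend, two-sided, Benjamini-Hochberg at 0.05), so that the p-values measure the spread between times and strains of single arrays. The rest used Python 3.11.15, numpy 2.4.6, pandas 2.3.3 and matplotlib 3.10.9. The fits were tested on simulated data.

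The naming rule took the 12 genes with the largest relative difference on each side with both signals at least 21. It added the 6 brightest on each side with the other signal under 21, the mutated genes and strain markers, and the 4 members of each list, at most, that lay farthest from 0. Cell type markers were also fixed. List members named beyond the rule were chosen after their values were seen. Members and lists were chosen with earlier results of these data known. 2 alias names, each a repeat of another gene's symbol, were taken out of the lists afterwards. Alternatives covered the pseudocount, filter, scaling, probe sets, extraction as a covariate and each array left out.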

Additional observations from a re-analysis of the deposited data

Results flagged for a closer look

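The results here had opposite signs at 0 h and at 4 h in the difference between the array labelled mre11delta and rad50delta. The change of sign was not tested, since each strain has 1 array per time. All values are relative differences in log2, and for lists they are medians.

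Among gene lists, nitrogen catabolite repressed genes were at -0.36 at 0 h and 0.82 at 4 h. Genes of trehalose and glycogen were at -1.25 and then 0.28, and genes of the stress response and heat shock, with 3 higher and 20 lower of 41 at 0 h, at 0.0742 at 4 h. The opposite order held for growth genes. Mitochondrial ribosomal proteins were at 2.26 and then -0.45, subunits of RNA polymerase I and III at 1.08 and then -0.55, ribosome biogenesis at 0.86 and then -0.51, genes of the TCA cycle and respiration at 0.57 and then -0.41, and large-subunit ribosomal proteins at 0.83 and then -0.12.

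Among single genes, MEP2 was at 4.28 at 4 h with 20.8 against 43.4 in signal at 0 h. GAP1 was at -1.53 and then 3.48, DAL5 at -1.66 and then 2.74, SHH4, a relative of a succinate dehydrogenase subunit, at -1.59 and then 3.33, and IRC15, a microtubule-associated protein, at -1.18 and then 2.78. SPS4 was at 1.01 and then -6.34. SMK1 was at 1.07 and then -6.86, but its signal was 30.4 against 9.1 at 0 h and 13.3 against 1999.6 at 4 h. One signal of each SMK1 pair is under the floor of 21, so the size of both values depends on the pseudocount.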

How the results depend on the processing

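No paired analysis was possible because each group holds 1 array. The counts past 2-fold at 4 h stayed within 1.5 times of those reported under each alternative run. With quantile normalization the split as deposited was 616 higher to 515 lower, with median centring 584 to 512 and with scaling to the spike controls 1001 to 356, against 830 to 407. The median difference of all genes was 0.10, 0.07 and 0.32 under these, against 0.24. Of the list medians, 272 of 273 moved by less than 1.5-fold, as did 517 of 546 list counts; the exception among medians was the G2/M cluster, at -1.54 with genes of a mean signal of at least 70. Of values of named genes, 1582 of 1620 were classed as moved by less than 1.5-fold and 37 by more. Changes of sign were counted only for differences of at least 2-fold, and 1 was found. That was LEU2, at 1.44 as reported and -0.34 with the mean of all its probe sets; the cause was not tested.

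The limma count of 2 genes was not stable. It was 0 with a pseudocount of 21, no filter, quantile normalization, median centring, extraction as a covariate or no trend, and 1 with the mean of all probe sets or with only the 4 arrays of both strains. With single arrays left out it ran from 0 (without either wild-type array) to 67 (without the array labelled mre11delta at 0 h). It was 25 without rad50delta at 0 h, 55 and 53 without spo11Y135F at 0 h and 4 h, 11 without the array labelled mre11delta at 4 h and 4 without rad50delta at 4 h. At an unadjusted p under 0.05 the settings with 0 calls held 126 to 259 genes, each a share under 0.05 of the genes tested. For these arrays, their number limits the precision.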

Other observations

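Some genes of DNA repair, replication and silencing stood apart between the arrays at 4 h. DIN7, a mitochondrial nuclease of the DNA damage response, had 329.9 in the array labelled mre11delta and 1274.0 in rad50delta (-2.16). HST4, a histone deacetylase, had 142.8 against 827.7 (-2.72), with 70.8 in wild type and 2130.9 in spo11Y135F. ORC1, of the origin recognition complex, had 490.0 against 1348.5 (-1.69). SIR2, the silencing deacetylase, had 267.9 against 58.6 (1.83), and SIC1, an inhibitor of S-phase cyclin kinase, 801.5 against 252.1 (1.40). As lists these groups were mixed. The DNA damage response had 2 members higher and 2 lower of 25 tested, DNA replication 5 and 2 of 40, silencing and telomere maintenance 3 and 5 of 20, and G1 cyclins and START 2 and 0 of 12. SUN4, a cell wall protein of septation, had 207.1 against 2.1, at least 9.86 times the floor, with 1.0 in wild type and 1.6 in spo11Y135F. CWP1, a cell wall mannoprotein, had 1721.1 against 12438.7 (-3.09), with 1536.6 in wild type and 13833.3 in spo11Y135F, but the cell wall list as a whole had 3 higher and 2 lower of 34.

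The remaining lists were read by their counts. No member passed 2-fold among 10 cohesin genes, 34 proteasome genes, 7 genes of meiotic splicing, 5 core histone genes or 3 mitochondrially encoded genes. Autophagy had 3 higher and 2 lower of 22, gluconeogenesis and acetate use 3 and 2 of 27, glycolysis and fermentation 1 and 0 of 24, and the TCA cycle and respiration 0 and 1 of 49. Hexose transporters had 0 higher and 4 lower of 12, with a median of -0.57; the lower ones were HXT14, HXT10, HXT4 and HXT3. Of the 4 tested genes of MRX and Sae2, RAD50 was higher and MRE11 and TEL1 were lower.

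Different probe sets of a gene did not always give the same direction. Of 288 tested genes with at least 2 sets above the floor, 109 had differences of opposite sign between sets at 4 h, among them 17 of the 68 called. By nuclear chromosome, the median relative difference ran from -0.20 (XVI) to 0.27 (X), and it was -0.30 over 3 mitochondrial genes. Of 2771 probe sets with no single gene, 1849 were above the floor, with 116 at least 2-fold higher and 296 lower.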
